A study of Mus musculus with 24 samples.

Results

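The opioid peptide and receptor genes of the mouse were examined in RNA sequencing of the hippocampal dentate gyrus. The 7 genes are the peptide precursor genes Penk, Pdyn and Pnoc and the receptor genes Oprd1, Oprm1, Oprk1 and Oprl1, out of 26667 genes in the deposited table. They were chosen by name and on measured values, namely the Penk levels of these libraries, since Penk had been read as higher in mice given BCI-838. All 7 were among the 18286 genes that passed the filter on low counts. The 24 libraries came from 5 groups. Of these, 5 libraries were from APP/PS1 mice given BCI-838 at 5 mg/kg daily by mouth for 1 month with free access to a running wheel for that month, and 4 were from APP/PS1 mice given BCI-838 alone. A further 5 were from APP/PS1 mice with the wheel and no drug, 5 from APP/PS1 mice with neither, and 5 from wild-type (WT) C57BL6/J mice with neither. BCI-838 is taken up orally and converted in the body to a compound that blocks the glutamate receptors mGluR2 and mGluR3, and APP/PS1 mice carry transgenes for the amyloid precursor protein and presenilin of familial Alzheimer's disease. The series design describes mice without drug as given vehicle, and describes the replicates as separate mice. It gives 5 mice per group, while the samples used here held 4 libraries of BCI-838 alone. The sources used here give neither the age and sex of the mice nor the promoter of the transgenes.

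Opioid peptides are cut from larger precursor proteins and act on receptors that couple to inhibitory G proteins. These lower cyclic AMP, open inwardly rectifying potassium channels and close presynaptic calcium channels. In the rodent dentate gyrus, enkephalins and dynorphins are stored in the mossy fibres of granule cells, enkephalins also reach the molecular layer from the entorhinal cortex, and the delta and mu receptors sit largely on GABAergic interneurons. Granule cells change their precursor mRNAs with neuronal activity, as has long been described after seizures in rats and mice.

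The total counts per library lay between 48656360 and 64632882. App and Prnp were higher in the APP/PS1 libraries, at 2467 to 4054 CPM and 1712 to 2388 CPM, than in WT libraries, at 1452 to 2073 CPM and 755 to 985 CPM. CPM are counts per 1000000 counts, scaled between libraries. The granule cell marker Prox1 had a count in every library, with the lowest levels of 37.0 CPM in 1 APP/PS1 control and 14.3 CPM in 1 WT library. Ttr, a marker of choroid plexus, exceeded 100 CPM in APP/PS1 control replicates 2, 4 and 5, at 425, 1615 and 1269 CPM, and in replicate 5 of BCI-838 with wheel, at 297 CPM. Where libraries over 100 Ttr CPM are left out below, the APP/PS1 control mean rests on libraries 1 and 3. A list of 14 genes of the dorsal midbrain summed to 9.33 to 46.8 CPM with BCI-838 and wheel, 63.3 to 115 CPM with BCI-838, 16.4 to 120 CPM with the wheel, 17.1 to 89.6 CPM in APP/PS1 controls and 19.6 to 110 CPM in WT. In such tissue samples, fewer cells of a type and less RNA per cell cannot be told apart.

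Per kilobase of exon, Penk had the highest level of the 7 genes in every group, and the classical mu and kappa receptor genes had the lowest. In WT libraries Penk averaged 17.5 ± 5.54 CPM per kb (SD, n = 5), ahead of Oprl1 at 10.4 ± 2.85, Pnoc at 5.30 ± 0.86, Oprd1 at 3.98 ± 0.68 and Pdyn at 2.99 ± 1.41 CPM per kb. Oprk1, at 0.226 ± 0.190 CPM per kb, and Oprm1, at 0.147 ± 0.143 CPM per kb, stood far under the others and did not differ from each other beyond their spread. In WT the libraries of neighbours in this order overlapped, except between Oprl1 and Pnoc and between Pdyn and Oprk1. With BCI-838, Penk averaged 87.7 ± 57.9 CPM per kb (SD, n = 4) and Oprd1 6.82 ± 1.12 CPM per kb, which put Oprd1 above Pnoc at 5.11 ± 0.28 CPM per kb.

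**Figure D1:**
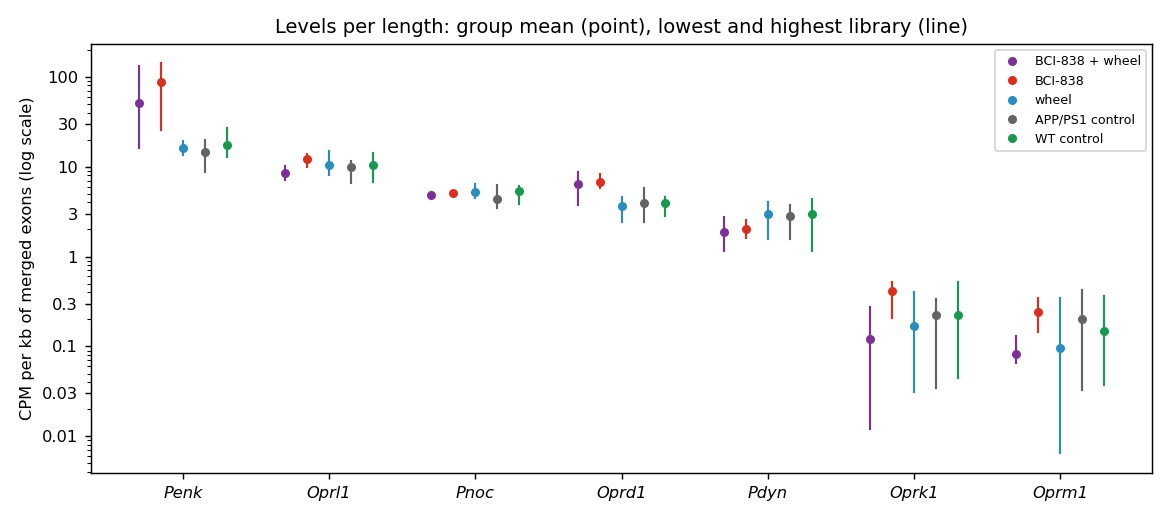
Level of each gene per kilobase of merged exons (CPM per kb, log scale) in the 5 groups, with the group mean as a point and the lowest to highest library as a line. Penk stands highest in each group, and Oprk1 and Oprm1 lie mostly under 0.5 CPM per kb.

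Penk encodes proenkephalin, the precursor of Met- and Leu-enkephalin, which act mainly at delta and mu receptors. It lies on chromosome 4, at 4133531 to 4138819 on the minus strand of GRCm38. Its level was higher with BCI-838 than without, and unevenly so. Replicates 1 to 5 of BCI-838 with wheel had 67.5, 26.6, 213, 78.8 and 31.6 CPM, and replicates 1 to 4 of BCI-838 had 42.0, 229.5, 218 and 83.6 CPM. The wheel libraries had 25.4, 30.6, 22.0, 22.2 and 31.3 CPM, the APP/PS1 controls had 32.4, 20.7, 14.4, 23.4 and 28.1 CPM, and the WT libraries had 24.4, 20.9, 43.6, 29.9 and 23.8 CPM. Every BCI-838 library was above every APP/PS1 control. Among the mice given both treatments, replicates 1, 3 and 4 were above all APP/PS1 libraries without drug, and replicates 2 and 5 were among them.

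The Penk fold change was 6.02 for BCI-838 over APP/PS1 control (log2 fold change 2.59, SE 0.50), from means of 143 ± 94.6 CPM (SD, n = 4) with BCI-838 and 23.8 ± 6.92 CPM (SD, n = 5) in APP/PS1 controls. This difference is among the values that chose the genes, and is given as a description. BCI-838 with wheel averaged 83.5 ± 75.8 CPM (SD, n = 5), a log2 difference of 1.81 (SE 0.48) from APP/PS1 control and of 1.67 (SE 0.47) from the wheel alone. Without replicate 3, which alone had over 200 CPM in that group, these became 1.10 and 0.96. The spread on the drug was wide, with 8.01-fold between the lowest and the highest library of BCI-838 with wheel and 5.47-fold within BCI-838, against 2.26-fold within APP/PS1 controls.

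For the wheel and for the genotype the Penk differences were smaller and did not pass the test. The wheel libraries averaged 26.3 ± 4.45 CPM (SD, n = 5), a log2 difference of 0.14 (SE 0.46) from APP/PS1 controls (edgeR, adjusted p = 1.00). APP/PS1 controls stood at −0.26 (SE 0.46) on the log2 scale against WT, which averaged 28.5 ± 9.06 CPM (SD, n = 5; edgeR, adjusted p = 1.00). Penk is also abundant in striatum, so the striatal list was set beside it. Of its 10 listed genes in the table, 9 to 10 had a count in each group, and their sums were 91.4 to 133 CPM with BCI-838 and wheel, 109 to 128 CPM with BCI-838, 96.8 to 109 CPM with the wheel, 95.5 to 119 CPM in APP/PS1 controls and 77.0 to 102 CPM in WT, with Isl1 at 0 in BCI-838 with wheel. Of the 9 that passed the filter, 4 were higher and 5 lower with BCI-838 than in APP/PS1 controls, 1 was higher and 8 lower with BCI-838 and wheel than in APP/PS1 controls, and 2 were higher and 7 lower with BCI-838 and wheel than with the wheel. One of them, Drd1a, is a dopamine receptor gene that granule cells also express. It had 4.54 to 59.1 CPM with BCI-838 and wheel, 22.3 to 46.4 CPM with BCI-838, 8.51 to 13.0 CPM with the wheel, 9.20 to 12.4 CPM in APP/PS1 controls and 3.51 to 13.0 CPM in WT, and was named after its values were seen. With the dorsal midbrain list as a covariate the Penk difference for BCI-838 was 2.57, and without the libraries over 100 Ttr CPM it was 2.61. The latter had APP/PS1 control libraries 1 and 3 as its reference, at 32.4 and 14.4 CPM of Penk. An antisense transcript, A830012C17Rik, shares 233 bases or 14.3% of the exons of Penk, and the sources used here do not say whether the counting used strand.

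Pdyn encodes prodynorphin, the precursor of the dynorphins, which act mainly at the kappa receptor. It is a granule cell gene in the dentate gyrus. Pdyn had 4.98, 8.03, 7.18, 3.37 and 3.67 CPM with BCI-838 and wheel, and 5.38, 7.40, 6.13 and 4.67 CPM with BCI-838. It had 10.2, 8.42, 11.6, 4.47 and 7.68 CPM with the wheel, 7.0, 10.9, 4.52, 7.39 and 10.5 CPM in APP/PS1 controls and 5.44, 10.1, 3.31, 11.9 and 12.5 CPM in WT. The libraries on the drug lay in the lower part of the range of the others, and all groups overlapped. The log2 difference was −0.45 (SE 0.36) for BCI-838 over APP/PS1 control. It was −0.64 (SE 0.33) for BCI-838 with wheel over wheel (edgeR, adjusted p = 0.322) and −0.57 (SE 0.33) for BCI-838 with wheel over APP/PS1 control (edgeR, adjusted p = 0.564). Without the libraries over 100 Ttr CPM, the BCI-838 and the combined differences from APP/PS1 control were both 0.03. The controls kept there, libraries 1 and 3, had the lowest Pdyn of their group, at 7.0 and 4.52 CPM. The wheel and genotype differences were 0.07 (SE 0.33) and −0.10 (SE 0.33).

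Pdyn levels followed the granule cell marker list across the 24 libraries. The 9 granule cell genes summed to 701 to 1917 CPM with BCI-838 and wheel, 1065 to 1440 CPM with BCI-838, 814 to 1682 CPM with the wheel, 566 to 1884 CPM in APP/PS1 controls and 361 to 1836 CPM in WT. Among the APP/PS1 controls, libraries 1 and 3 had the lowest sums, at 1257 and 566 CPM. The correlation of Pdyn with the mean of that list was r = 0.882 and rho = 0.944 (n = 24, permutation p = 1e-05 for each, the smallest that 100000 permutations can give; adjusted p = 0.00042 and 0.00028 over 84 relations). Without the pair of libraries farthest from the list's median, r was 0.920. The WT library with the lowest Prox1 also had the lowest Pdyn of all libraries. With the interneuron list Pdyn had r = −0.614 and rho = −0.747 (adjusted permutation p = 0.0115 and 0.00098).

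Pnoc encodes prepronociceptin, the precursor of nociceptin, a peptide made by interneurons of the hippocampus. Its 24 libraries covered a narrow range. It had 9.51, 10.5, 11.1, 10.6 and 10.2 CPM with BCI-838 and wheel, and 10.2, 11.1, 11.4 and 11.5 CPM with BCI-838. It had 12.0, 9.64, 9.55, 13.7 and 11.5 CPM with the wheel, 13.5, 7.40, 8.32, 7.56 and 10.6 CPM in APP/PS1 controls and 13.2, 11.7, 11.9, 8.26 and 12.2 CPM in WT. The groups overlapped, and the 4 lowest values of all were 3 APP/PS1 controls and 1 WT library. The genotype difference was −0.27 (SE 0.15; edgeR, adjusted p = 1.00), and the wheel difference was 0.25 (SE 0.15; edgeR, adjusted p = 0.989). For BCI-838 over APP/PS1 control the log2 difference was 0.22 (SE 0.15).

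Oprd1 encodes the delta receptor, the receptor that enkephalins prefer, and is carried by parvalbumin interneurons in the rodent hippocampus. It lies on chromosome 4, at 132110726 to 132144486 on the minus strand of GRCm38. Its mean was higher on the drug both in runners and in mice without a wheel. It had 29.2, 15.1, 35.1, 29.5 and 19.2 CPM with BCI-838 and wheel, and 23.1, 33.7, 27.1 and 25.9 CPM with BCI-838. It had 13.9, 9.83, 18.6, 17.5 and 14.0 CPM with the wheel, 15.9, 14.1, 23.0, 9.75 and 17.3 CPM in APP/PS1 controls and 16.3, 11.3, 18.3, 16.8 and 17.3 CPM in WT. BCI-838 and APP/PS1 control did not overlap, but only just, with 23.06 CPM as the lowest BCI-838 library and 23.00 CPM as the highest APP/PS1 control. In mice given both treatments, replicates 1, 3 and 4 were above every library without drug, and these were also the replicates high in Penk.

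The log2 difference of Oprd1 was 0.79 (SE 0.23), a fold of 1.73, for BCI-838 with wheel at 25.6 ± 8.20 CPM over wheel at 14.8 ± 3.46 CPM (SD, n = 5 each; edgeR, adjusted p = 0.131). It did not pass the threshold of 0.05 in edgeR, but did with DESeq2, at 0.81 and an adjusted p of 0.0323, and with limma voom, at 0.78 and an adjusted p of 0.0485. It was higher in 4 of 5 libraries than the highest wheel library. Over APP/PS1 control, at 16.0 ± 4.83 CPM (SD, n = 5), the difference of BCI-838 with wheel was 0.68 (SE 0.23; edgeR, adjusted p = 0.329). BCI-838 alone averaged 27.4 ± 4.50 CPM (SD, n = 4), a log2 difference of 0.78 (SE 0.24) from APP/PS1 control, given as a description. Without the libraries over 100 Ttr CPM, these 2 differences from APP/PS1 control were 0.48 and 0.50. The controls kept there, libraries 1 and 3, had 15.9 and 23.0 CPM, and library 3 was the highest of its group. The wheel difference was −0.12 (SE 0.23) and the genotype difference 0.0034 (SE 0.23), both with an edgeR adjusted p of 1.00.

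Promoter sequences from RefSeq (GRCm38.p6) were available for 4 of the 7 genes. The windows of Oprd1 and Pdyn, each the 250 bases before a start on the minus strand, are shown because these genes stood on opposite sides of APP/PS1 control in both groups given the drug when all libraries were kept. Without the libraries over 100 Ttr CPM, where control libraries 1 and 3 were the reference, they did not, with Pdyn at 0.03 in both. RefSeq lists 2 starts for Pdyn, and the window of the upstream one is shown. The window of the other had 44.0% G and C. They lie at chr4:132144487-132144736 and chr2:129699939-129700188, and capitals mark CACGTG and GGGCGG on either strand.
Oprd1: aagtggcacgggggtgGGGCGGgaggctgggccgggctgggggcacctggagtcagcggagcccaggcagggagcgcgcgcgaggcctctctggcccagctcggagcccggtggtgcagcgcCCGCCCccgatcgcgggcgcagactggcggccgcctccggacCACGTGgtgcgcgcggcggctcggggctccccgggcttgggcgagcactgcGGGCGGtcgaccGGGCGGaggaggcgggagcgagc
Pdyn: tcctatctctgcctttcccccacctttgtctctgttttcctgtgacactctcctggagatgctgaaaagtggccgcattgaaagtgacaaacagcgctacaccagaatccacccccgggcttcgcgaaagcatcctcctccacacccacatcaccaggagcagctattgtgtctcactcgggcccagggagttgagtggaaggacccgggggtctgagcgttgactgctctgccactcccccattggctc
The Oprd1 window had 80.0% G and C, 4 GGGCGG and 1 CACGTG, and the Pdyn window had 57.2% G and C and neither of these. The other Pdyn window and the windows of Oprl1 and Oprm1 also held neither. Oprl1 and Oprm1 stood at 0.32 (SE 0.20) and 0.25 (SE 0.80) for BCI-838 over APP/PS1 control, so lack of these letters did not go with 1 direction. Of 32851 promoter windows of this length, 32.7% held GGGCGG and 6.02% held CACGTG. TGACGTCA, found on either strand in 1.55% of windows, was not in the letters of either window shown.

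**Figure D2:**
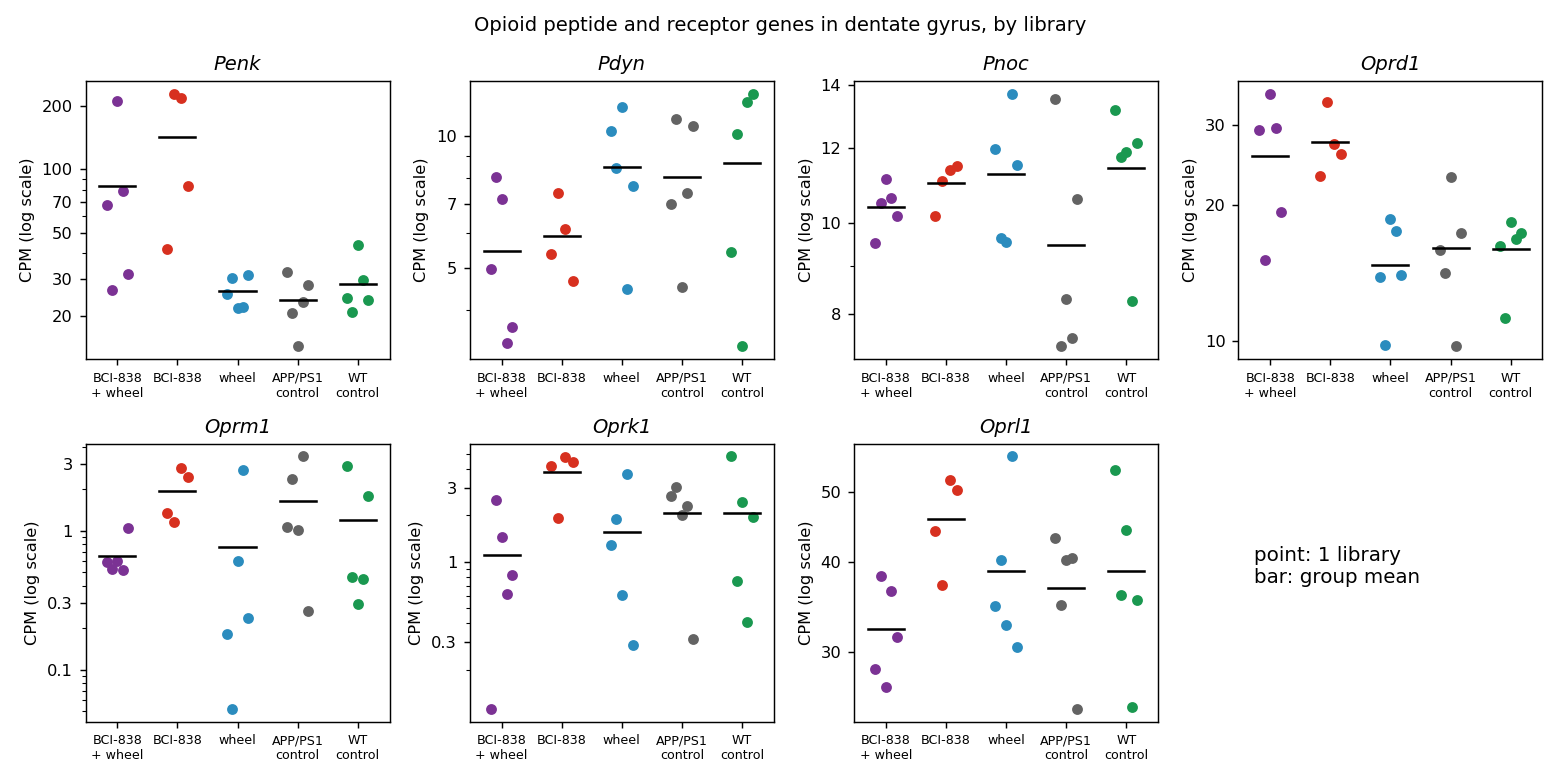
CPM (log scale) of the 7 genes in each library, by group, with 1 point per library and a bar at the group mean. Penk and Oprd1 are higher in the libraries on BCI-838, with BCI-838 with wheel replicates 2 and 5 among the lower ones, and Oprm1 and Oprk1 spread widely within groups.

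Oprm1 encodes the mu receptor, the target of morphine, and Oprk1 the kappa receptor, the target of dynorphins. Both had few reads, with 3 to 189 counts per library for Oprm1 and 6 to 283 for Oprk1. Exons of Oprm1 overlap those of Ipcef1 on the opposite strand by 96 bases, or 1.19% of the Oprm1 exons. Its reads are uncertain where the genes share sequence. Oprm1 had 0.592, 0.526, 0.605, 0.523 and 1.04 CPM with BCI-838 and wheel, and 1.34, 1.15, 2.81 and 2.44 CPM with BCI-838. It had 0.180, 0.0519, 0.605, 2.75 and 0.233 CPM with the wheel, 1.07, 2.37, 1.01, 3.43 and 0.264 CPM in APP/PS1 controls and 2.93, 0.463, 0.297, 0.446 and 1.79 CPM in WT. Within the wheel group the highest library was 52.9-fold above the lowest, and all groups compared overlapped. The largest log2 difference was −1.30 (SE 0.79) for BCI-838 with wheel over APP/PS1 control (edgeR, adjusted p = 0.575). For BCI-838 over APP/PS1 control it was 0.25 (SE 0.80).

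Oprk1 had 0.111, 2.52, 1.45, 0.621 and 0.814 CPM with BCI-838 and wheel, and 4.16, 1.90, 4.77 and 4.40 CPM with BCI-838. It had 1.28, 1.90, 0.605, 3.71 and 0.287 CPM with the wheel, 2.65, 3.05, 1.99, 2.28 and 0.316 CPM in APP/PS1 controls and 4.80, 0.752, 2.44, 0.408 and 1.96 CPM in WT. The BCI-838 libraries were among the highest, and 1 of them lay within the APP/PS1 controls. The BCI-838 difference from APP/PS1 control was 0.89 (SE 0.74), and with the dorsal midbrain list as a covariate it was −0.43. The interaction of drug and wheel was −1.38 (SE 1.03; edgeR, adjusted p = 0.700). Oprk1 moved with the dorsal midbrain list across the libraries, with r = 0.867 and rho = 0.858 (n = 24, permutation p = 1e-05 for each, the smallest that the permutations can give; adjusted p = 0.00042 and 0.00028), and r was 0.852 without the pair of libraries farthest from the median. This was not particular to that list. With the striatal list rho was 0.783, with cortex and subiculum 0.625, with thalamus 0.558 and with microglia −0.607 (adjusted permutation p = 0.00028, 0.0103, 0.0282 and 0.0139).

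Oprl1 encodes the nociceptin receptor. It had 28.4, 38.3, 26.8, 36.4 and 31.4 CPM with BCI-838 and wheel, and 44.2, 37.1, 52.1 and 50.3 CPM with BCI-838. It had 34.7, 40.3, 32.7, 56.1 and 30.5 CPM with the wheel, 43.1, 34.9, 40.3, 40.5 and 25.0 CPM in APP/PS1 controls and 53.7, 35.9, 44.3, 25.1 and 35.4 CPM in WT. The drug values stood on opposite sides with and without the wheel, and each pair of groups overlapped. The log2 difference was 0.32 (SE 0.20) for BCI-838 over APP/PS1 control and −0.27 (SE 0.19) for BCI-838 with wheel over wheel. The interaction of −0.59 (SE 0.27; edgeR, adjusted p = 0.499) did not pass. Oprl1 also moved with the dorsal midbrain list (r = 0.771 and rho = 0.768, n = 24; adjusted permutation p = 0.00063 for each), and with that list as a covariate the BCI-838 difference was 0.04. The part of dorsal midbrain RNA in the Oprk1, Oprl1 and Oprm1 values was not tested beyond that covariate. Oprl1 also had rho = 0.744 with the cortex and subiculum list and 0.722 with the striatal list (adjusted permutation p = 0.00067 and 0.0012). The part of those lists was not tested.

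Set against all genes, the counts of called members were as follows. BCI-838 over APP/PS1 control had 0% of the 18286 genes called at an edgeR adjusted p under 0.05. Without adjustment 1863 genes had a p under 0.05 in edgeR. The number called was 170 with DESeq2 and 483 with limma voom. Of the 7 members, 6 were higher and Pdyn was lower, with a median log2 difference of 0.32 against 0.00 over all genes. The 2 members whose groups did not overlap, Penk and Oprd1, compare with 4.71% of all genes, and nothing is read from that count, since this comparison was used to choose the genes.

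For BCI-838 with wheel over APP/PS1 control, 0 of the 6 members tested were called by edgeR, against 0% of all genes, and no member had groups that did not overlap, against 1.01% of all genes. At an unadjusted p under 0.05 there was 1 member, Oprd1, against 10.6% of all genes, and DESeq2 called 82 genes in all and limma voom 0, with no member among them. For BCI-838 with wheel over wheel, edgeR called 0 of the 6, against 0% of all genes, and no member had groups that did not overlap, against 1.4% of all genes. Again Oprd1 was the 1 member at an unadjusted p under 0.05, against 17.6% of all genes. DESeq2 called 364 genes and limma voom 1012 in that comparison, with Oprd1 as the 1 member in each. These comparisons share mice with that of BCI-838 over APP/PS1 control or with each other, and the values are given side by side for that reason.

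The wheel over APP/PS1 control had 0 of 7 members called by edgeR and 0 at an unadjusted p under 0.05, against 0.00547% and 5.44% of all genes. Its median over the members was 0.07, against 0.01 over all genes. The genotype comparison likewise had 0 of 7 called and 0 at an unadjusted p under 0.05, against 0.0109% and 2.76% of all genes, with a median of −0.08 against −0.01. Neither comparison had a member whose groups did not overlap, against 0.585% of all genes for the wheel and 0.312% for the genotype, and DESeq2 and limma voom called no member in either. In the interaction of drug and wheel, 0 of 6 members were called by edgeR, against 0% of all genes, and Oprl1 was the 1 member at an unadjusted p under 0.05, against 9.6% of all genes. The interaction of Oprd1 was 0.02 (SE 0.33), and that of Penk, given as a description, was −0.92 (SE 0.67).

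**Figure D3:**
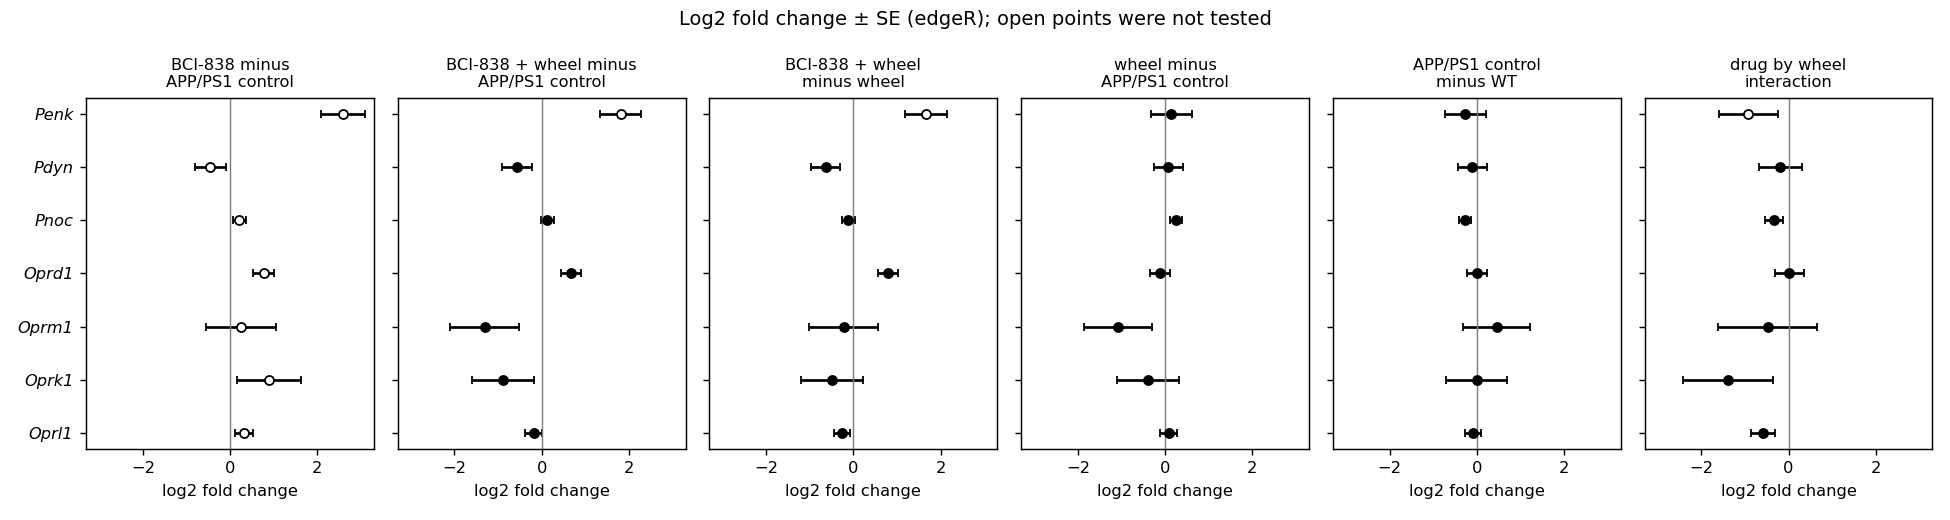
Log2 fold change with its SE (edgeR, 24 libraries) of each gene in 6 comparisons, where open points were used to choose the genes and were not tested. Penk lies to the right at 2.59, 1.81 and 1.67 and Oprd1 at 0.78, 0.68 and 0.79 in the comparisons with the drug, while Oprm1 and Oprk1 have SEs of about 0.7 or more.

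Genes that make, break down or pass on opioid signals were compared with the same test, and none of them was called in any comparison. Pomc, the remaining opioid precursor gene, averaged 1.27 CPM with BCI-838 and 1.42 CPM in APP/PS1 controls, a log2 difference of −0.17 (SE 0.23). Of the 8 precursor processing enzymes, 1 had an unadjusted p under 0.05 for BCI-838 over APP/PS1 control, against 10.2% of all genes. This was Furin, a proprotein convertase, at −0.27 (SE 0.10; edgeR, adjusted p = 0.340). In runners it was Pcsk1n, the gene of an inhibitor of the convertase PC1/3, at −0.29 (SE 0.11; edgeR, adjusted p = 0.179). Pcsk1, the convertase gene itself, had the smallest p for the wheel, at −0.71 (SE 0.34; edgeR, adjusted p = 0.920), and Pcsk2 had it for the genotype, at −0.17 (SE 0.13). The median over the 8 was −0.10 for BCI-838 over APP/PS1 control and 0.05 in runners, against 0.00 and −0.02 over all genes.

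Of 8 peptide degrading enzymes, 0 were at an unadjusted p under 0.05 for BCI-838 over APP/PS1 control and 3 of 8 for BCI-838 with wheel over wheel, against 10.2% and 17.6% of all genes, with medians of 0.07 and −0.11. Of those 3, 2 were higher and 1 was lower. The smallest p values belonged to Npepps, a puromycin-sensitive aminopeptidase, at 0.10 (SE 0.05) for BCI-838, and to Ece1, an endothelin-converting enzyme, at −0.21 (SE 0.07; edgeR, adjusted p = 0.148) in runners. Ace, a peptidase abundant in choroid plexus, stood at 1.07 (SE 0.33; edgeR, adjusted p = 1.00) for APP/PS1 control over WT and at −0.86 (SE 0.33; edgeR, adjusted p = 0.698) for wheel over APP/PS1 control. The 14 genes of the choroid plexus and ependyma list summed to 195 to 281 CPM with the wheel, 246 to 2562 CPM in APP/PS1 controls and 205 to 306 CPM in WT, and their part in the Ace values was not tested.

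Of 28 measured receptor signalling and regulation genes, 4 were at an unadjusted p under 0.05 for BCI-838 over APP/PS1 control and 8 for BCI-838 with wheel over wheel, against 10.2% and 17.6% of all genes, with medians of −0.01 and 0.03. Of the 4, 1 was higher and 3 were lower, and of the 8, 6 were higher and 2 were lower. Adcy1, an adenylyl cyclase, was at −0.64 (SE 0.23; edgeR, adjusted p = 0.331) for BCI-838. Cacna1b, the presynaptic N-type calcium channel that opioid receptors inhibit, was at 0.41 (SE 0.12; edgeR, adjusted p = 0.131) in runners. Rgs19 had the smallest p for the wheel, at 0.17 (SE 0.09), and Rgs4, another regulator of G protein signalling, had it for the genotype, at −0.50 (SE 0.27).

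Of 21 activity-responsive genes, 3 were at an unadjusted p under 0.05 for BCI-838 over APP/PS1 control and 4 for BCI-838 with wheel over wheel, near the 10.2% and 17.6% of all genes. Of the 3, 2 were higher and 1 was lower, and the 4 were all higher. The medians were −0.12 and 0.22, against 0.00 and −0.02 over all genes. Scg2, a granin of dense-core vesicles, was at 0.49 (SE 0.15; edgeR, adjusted p = 0.273) for BCI-838. On the other side, Egr4, an immediate early transcription factor gene named after its values were seen, was at −0.87 (SE 0.30; edgeR, adjusted p = 0.311) for BCI-838. In runners the smallest p was that of Nptx2, a synaptic pentraxin, at 0.80 (SE 0.31; edgeR, adjusted p = 0.193). Nptx2 was at −0.55 (SE 0.31) for the wheel and Arc at −0.43 (SE 0.34) for the genotype. Of 16 interneuron peptide and GABA genes, 5 and 3 were at an unadjusted p under 0.05 in the same 2 drug comparisons, against 10.2% and 17.6% of all genes. The list was split for BCI-838 over APP/PS1 control, with 8 genes higher, 8 lower and a median of 0.046. Of the 5, 3 were higher and 2 lower, and the lower ones, named after their values were seen, were the peptide genes Cort at −1.32 (SE 0.47; edgeR, adjusted p = 0.331) and Cck at −0.68 (SE 0.30; edgeR, adjusted p = 0.438). The smallest p values were those of Gad2, a GABA-synthesising enzyme, at 0.90 (SE 0.31; edgeR, adjusted p = 0.311) for BCI-838, and of Nos1, the neuronal nitric oxide synthase gene, at 0.71 (SE 0.25; edgeR, adjusted p = 0.170) in runners. Pvalb was at 0.49 (SE 0.30) for the wheel and Tac1 at 0.62 (SE 0.34) for the genotype.

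The genes whose log2 CPM ranked most like each member over the 24 libraries were taken as a description, without a test. For Penk these were Sh2d5, Shroom2, Sfrp4, Kif17 and Acsl5, with rho of 0.804, 0.803, 0.792, 0.790 and 0.764. Kif17, a kinesin motor of dendrites, averaged 47.8 CPM with BCI-838 and wheel, 49.5 CPM with BCI-838, 38.1 CPM with the wheel, 34.6 CPM in APP/PS1 controls and 32.8 CPM in WT. After group means were removed, rho of the 5 genes with Penk was 0.543 to 0.630, against 0.764 to 0.804 before. For Oprd1 they were Rab8b, a vesicle traffic GTPase, at 0.940, Dtx4 at 0.899 and the aryl hydrocarbon receptor gene Ahr at 0.885. Rab8b averaged 80.8 CPM with BCI-838 and wheel, 81.9 CPM with BCI-838, 56.9 CPM with the wheel, 56.8 CPM in APP/PS1 controls and 63.1 CPM in WT.

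**Figure D4:**
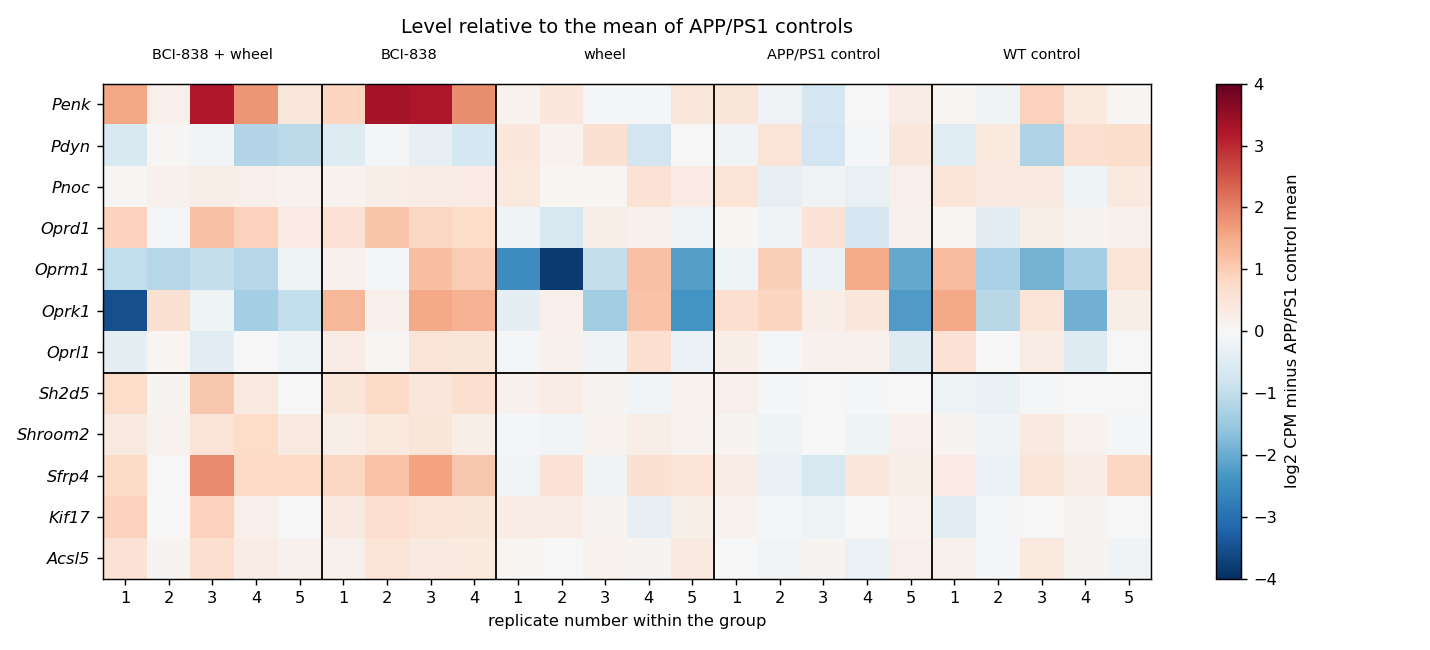
Level of each gene in each library as log2 CPM minus the mean of the APP/PS1 controls (colour scale from −4 to 4), with the 7 opioid genes above the line and the 5 genes most like Penk below it. Penk reads 3.21 in replicate 3 of BCI-838 with wheel and 3.32 and 3.25 in replicates 2 and 3 of BCI-838, against 0.21 and 0.46 in replicates 2 and 5 of BCI-838 with wheel.

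For Pdyn the most alike were Btg2 at 0.944, Maml2 at 0.935 and C1ql3 at 0.917, of which Maml2 is one of the granule cell markers listed. For Pnoc the values were lower, with the channel gene Hcn2 at 0.757, Cacng7 at 0.752 and Tnip1 at 0.751. For Oprm1 they were AF529169 at 0.921, Msi2 at 0.901 and Mme at 0.885, the gene of neprilysin, which degrades enkephalins. Mme averaged 5.71 CPM with BCI-838 and wheel, 7.91 CPM with BCI-838, 4.85 CPM with the wheel, 7.16 CPM in APP/PS1 controls and 6.40 CPM in WT. For Oprk1 they were AW551984 at 0.932, Fam196b at 0.919 and Irs4 at 0.918, and for Oprl1 Susd2 at 0.954, Grip2 at 0.950 and Hsf4 at 0.946.

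The members were also compared with each other, within the 9 libraries on BCI-838 and within the 15 off it, which gave 42 relations. Those with Penk are given as descriptions, with no test, since its levels in these libraries chose the genes. On the drug, r of Penk with Oprd1 was 0.853 and rho 0.783 over 9 libraries from both drug groups, whose Penk means differ, and r was 0.781 without the pair of libraries farthest from the median of Penk. Off the drug r was −0.165 and rho −0.146 over 15 libraries from 3 groups. Oprk1 and Oprl1 moved together in both sets, with r = 0.772 and rho = 0.883 on the drug (n = 9, exact permutation, adjusted p = 0.105 and 0.0431) and r = 0.874 and rho = 0.861 off it (n = 15, permutation, adjusted p = 0.00042 and 0.00252). The permutations were not kept within groups, so these p values and those that follow also include differences between the pooled groups. Oprk1 averaged 3.81 CPM with BCI-838 and 1.10 CPM with BCI-838 and wheel, and Oprl1 averaged 45.9 and 32.3 CPM. Pdyn and Oprl1 moved in opposite ways off the drug, with r = −0.724 and rho = −0.793 (n = 15, permutation, adjusted p = 0.0334 and 0.0155), and r was −0.669 without the pair of libraries farthest from the median. On the drug r was 0.0228 and rho 0.117. Over all 24 libraries Oprl1 had r = −0.486 and rho = −0.563 with the granule cell list (permutation, adjusted p = 0.0628 and 0.0256). Pdyn had rho = 0.944 with that list, and the part of the list in the relation of Pdyn and Oprl1 was not tested. Oprm1 and Oprk1 had rho = 0.704 off the drug (permutation, adjusted p = 0.0467), and r was 0.577 (adjusted p = 0.167).

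Of the 84 relations between members and marker lists, Oprd1 had r = 0.630 and rho = 0.639 with the astrocyte list (n = 24, permutation, adjusted p = 0.0105 and 0.00909) and r = 0.635 and rho = 0.559 with the interneuron list (adjusted p = 0.00912 and 0.0264). Without the pair of libraries farthest from the median, r was 0.531 and 0.484. Oprd1 had r = −0.375 and rho = −0.524 with the granule cell list (adjusted permutation p = 0.180 and 0.0402). With the thalamus list it had r = −0.526 and rho = −0.478 (adjusted p = 0.0482 and 0.0656). Oprm1 had r = 0.684 and rho = 0.678 with the astrocyte list (adjusted p = 0.0047 and 0.00504). This was not particular to the astrocyte list. For Oprm1, rho was 0.687 with the striatal list, 0.626 with dorsal midbrain and −0.654 with microglia (adjusted permutation p = 0.00346, 0.0103 and 0.00563). These permutations pooled all groups, so the p values also include differences between groups. The interneuron list of 9 genes summed to 927 to 1331 CPM with BCI-838 and wheel, 1220 to 1477 CPM with BCI-838, 709 to 1529 CPM with the wheel, 681 to 1276 CPM in APP/PS1 controls and 548 to 1377 CPM in WT. Its part in the Oprd1 difference was not tested. No correlation of Penk with the marker lists is given, since Penk was chosen for its level on the drug.

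**Figure D5:**
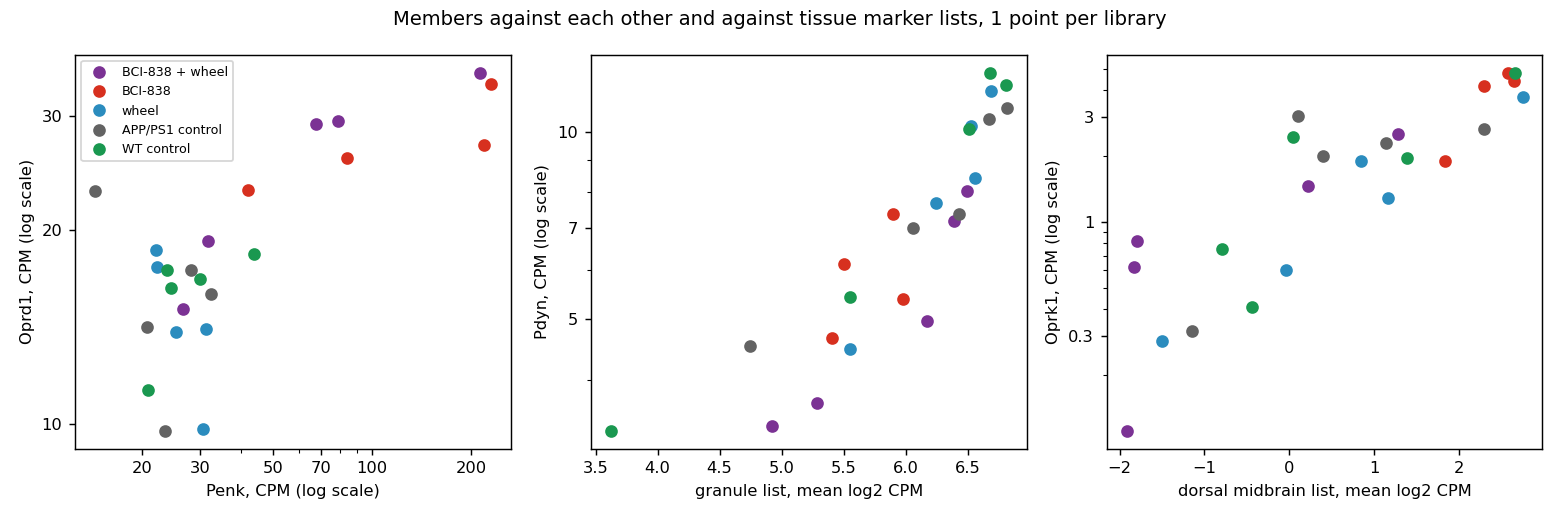
Each point is 1 library, coloured by group: Oprd1 against Penk (CPM, log scales), Pdyn (CPM, log scale) against the mean log2 CPM of the granule cell list, and Oprk1 (CPM, log scale) against that of the dorsal midbrain list. Among the libraries on BCI-838, those with the lowest Penk also have the lowest Oprd1, Pdyn follows the granule cell list with rho = 0.944, and Oprk1 follows the dorsal midbrain list with rho = 0.858.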

How the data were processed

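RNA sequencing measured 24 dentate gyrus libraries, 1 per mouse and group as the labels give them. The authors deposited whole-number read counts per gene in 1 table, and the submitters' processing notes list 3 tools, STAR, HTSeq and DESeq, and the build mm10. The sources used here give neither their versions nor whether counting used strand. A second deposited table of normalised values was not used.

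Genes were filtered with filterByExpr of edgeR 4.0.16 (minimum count 10, minimum total 15), which kept 18286 of 26667, and scaled with TMM factors. A mean per group was fitted over all 24 libraries in R 4.3.3, and differences were tested with the robust quasi-likelihood F test with Benjamini-Hochberg adjustment over all genes kept. A gene was called at an adjusted p under 0.05. SEs were obtained from each log2 fold change and its F statistic (the size of the change over √F). CPM are counts per 1000000 TMM-scaled counts, and log2 CPM used a prior count of 2. The fit was run on simulated counts for the genotype and wheel comparisons only, drawn with its own estimates of the spread. That run covered neither the drug comparisons nor the tissue differences between libraries, and its outcome is not given here. Libraries held 48656360 to 64632882 counts. The 2 most alike libraries still differed by more than sampling noise, with a chi-square per gene of 16.6.

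The members, gene lists and marker lists were chosen with earlier results of these data known. Because Penk was chosen for its level with BCI-838, no member was tested for BCI-838 over APP/PS1 control, and Penk was tested in no comparison of drug with no drug. Named genes were the members, the gene of each list with the smallest p in the genotype, BCI-838, wheel and runner comparisons, the genes most alike by Spearman rho (5 for Penk, 3 for each other member, predicted genes left out) and markers whose values stand beside a result. Correlations used exact or 100000 random two-sided permutations, which were not kept within groups. Gene models were from GENCODE on GRCm38. Alternatives were RLE size factors, other filters, DESeq2 1.42.0, limma 3.58.1 voom with quality weights, the replicate number as a block, tissue covariates, only the libraries compared, and leaving out libraries.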

Additional observations from a re-analysis of the deposited data

Results flagged for a closer look

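Within groups of 4 or 5 libraries, 3 of 35 sets of member levels held 1 library far from the others by Dixon's test at the 95% level. The nominal rate of about 1 of 20 groups holds for normally distributed values. The test was run on CPM and not on log2 CPM, and all 3 were the highest library of their group. The count of 3 is therefore not compared with that rate. Penk had 213 CPM in replicate 3 of BCI-838 with wheel, where the next highest library of the group had 78.8 CPM. This is a description, since Penk levels on the drug chose the genes. Oprm1 had 1.04 CPM in replicate 5 of BCI-838 with wheel, against 0.605 CPM in the next highest. Oprm1 had 2.75 CPM in replicate 4 of the wheel group, against 0.605 CPM in the next highest. That wheel library also had the highest Oprl1 of all, at 56.1 CPM, and the highest Pax7, a dorsal midbrain marker, at 16.1 CPM. No member had a drug by wheel interaction that passed the threshold.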

How the results depend on the processing

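Over 10 alternatives to the fit, each applied to the 42 log2 differences of members, 386 of 420 values stayed the same. For tested differences this means the same direction and side of the threshold. For differences not tested it means a shift smaller than the SD of log2 CPM within the groups, whatever the direction. The differences of Penk with the drug kept their direction under each of them. Nothing is read from that, since Penk was chosen for its level on the drug in these same libraries. As a description, they ranged under single left-out libraries over 2.26 to 2.88 for BCI-838, 1.10 to 2.02 for BCI-838 with wheel over APP/PS1 control and 0.96 to 1.89 over wheel. In the comparison of BCI-838 with wheel over wheel, the count of members called was 1 with DESeq2 and 1 with limma voom, against 0. The count was 0 under each left-out library, with Oprd1 at 0.66 to 0.93 and an edgeR adjusted p of 0.0503 to 0.369. No count of called members was formed for BCI-838 over APP/PS1 control.

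Signs changed as follows, beside that of Oprk1 for BCI-838 with the dorsal midbrain covariate given above, and the cause was not tested. With no filter, Oprk1 was 0.0073 for the genotype, and with only the compared libraries 0.0025. With the dorsal midbrain covariate, Oprk1 was 0.21 for the genotype, 0.70 in runners and 1.13 for the interaction, Oprl1 0.062 for both treatments over control and 0.0045 in runners (−0.27 without the covariate), Oprm1 1.34 in runners and 2.14 for the interaction, and Oprd1 −0.053 for the interaction. With the granule minus CA field covariate, Oprk1 was 0.0018 for the genotype, Pdyn −0.0046 for the wheel and 0.075 for the interaction, and Oprd1 −0.077 for the interaction. Without the libraries over 100 Ttr CPM, Oprm1 was −0.19, Oprk1 0.17 and Oprl1 0.10 for the genotype, Oprl1 −0.10 for the wheel, and Pdyn 0.031 (−0.57 with all libraries) and Pnoc −0.065 for both treatments over control, while Pdyn for BCI-838 was 0.033 (−0.45 with all libraries). With voom, Oprd1 was −0.11 and Oprk1 0.40 for the genotype, Oprm1 1.35 in runners and 0.90 for the interaction, and Oprd1 −0.10 for the interaction.

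The main fit did not pair mice by replicate number. Of same-numbered pairs, 10 of 46 had r over 0.1, with a range from −0.38 to 0.40, and 6 of 24 libraries correlated best with their own number. No range was formed for differently numbered pairs, so whether mice of the same number share a factor was not tested. With the replicate number as a block, Oprd1 was −0.0030 for the genotype and −0.039 for the interaction, Oprm1 0.30 in runners and 0.017 for the interaction, and no member was called.

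With single libraries left out, ranges crossed 0 for Oprd1 (−0.16 to 0.14 genotype, −0.26 to 0.040 wheel, −0.14 to 0.17 interaction), Oprk1 (−0.27 to 0.57 genotype, −1.07 to 0.12 runners), Oprl1 (−0.20 to 0.063 genotype, −0.10 to 0.15 wheel), Oprm1 (−0.0088 to 1.11 genotype, −0.031 to 0.71 BCI-838, −0.52 to 1.29 runners, −0.93 to 1.05 interaction), Pdyn (−0.31 to 0.068 genotype, −0.087 to 0.23 wheel) and Penk (−0.0028 to 0.28 wheel). Over all genes, DESeq2 called 14 genes for the genotype, 61 for the wheel and 77 for the interaction, against 2, 1 and 0 in edgeR, and voom called 2, 0 and 0. With only the compared libraries, 9 genes were called for BCI-838, 1 for the genotype and 0 for the wheel. The block gave 1 gene for both treatments over control, and the granule minus CA field covariate 1 in runners. Left-out libraries gave 0 to 12 genes for BCI-838, 0 to 17 for both treatments over control, 0 to 400 in runners and 0 to 27 for the wheel. The 400 came without wheel replicate 3. Depth limits Oprm1 and Oprk1, at 3 to 189 and 6 to 283 counts.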

Other observations

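Other dentate genes that differ from library to library on the drug are given here as values, and were chosen after their values were seen. Calb1, the gene of the calcium buffer calbindin of mature granule cells, had 49.0, 99.4, 26.0, 28.2 and 63.7 CPM in replicates 1 to 5 of BCI-838 with wheel and 53.4, 28.5, 36.3 and 38.3 CPM in replicates 1 to 4 of BCI-838. It averaged 105 ± 24.9 CPM with the wheel, 102 ± 40.8 CPM in APP/PS1 controls and 104 ± 27.2 CPM in WT (SD, n = 5 each). The log2 difference of Calb1 was −1.38 (SE 0.36; edgeR, adjusted p = 0.181) for BCI-838 over APP/PS1 control and −0.97 (SE 0.33; edgeR, adjusted p = 0.164) for BCI-838 with wheel over wheel, and neither passed the threshold. Npy, an interneuron peptide gene, had 56.2, 38.5, 131, 115 and 47.8 CPM with BCI-838 and wheel, 26.6, 109, 81.5 and 40.8 CPM with BCI-838, 26.1 to 59.5 CPM with the wheel, 27.8 to 57.5 CPM in APP/PS1 controls and 25.0 to 64.0 CPM in WT. Bdnf, an activity-responsive growth factor gene, had 122, 56.1, 134, 55.1 and 61.8 CPM with BCI-838 and wheel, 63.9, 108, 113 and 66.3 CPM with BCI-838, 35.9 to 72.2 CPM with the wheel, 30.6 to 77.6 CPM in APP/PS1 controls and 36.8 to 79.1 CPM in WT.

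The genes of the receptors that the active form of BCI-838 blocks were measured too. Grm2, which granule cells express, averaged 85.5 ± 39.3 CPM with BCI-838 and wheel (SD, n = 5), 85.8 ± 9.65 CPM with BCI-838 (SD, n = 4), 116 ± 23.5 CPM with the wheel, 119 ± 33.0 CPM in APP/PS1 controls and 102 ± 38.4 CPM in WT (SD, n = 5 each). Grm3 averaged 41.9 ± 7.92 CPM with BCI-838 and wheel (SD, n = 5), 48.1 ± 1.56 CPM with BCI-838 (SD, n = 4), 42.3 ± 8.05 CPM with the wheel, 41.6 ± 14.9 CPM in APP/PS1 controls and 46.9 ± 4.38 CPM in WT (SD, n = 5 each).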
